A study of Mus musculus with 12 samples.

Results

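Sprouty 1 and several dual-specificity phosphatases are genes that ERK signalling switches on and whose products then restrain it. The genes taken here were Spry1, Dusp1, Dusp2, Dusp4, Dusp5, Dusp6 and Dusp10, and every probe set was used whose annotation names exactly 1 of these 7 symbols. Of the 22690 probe sets on the array, 6 met this rule, for 5 genes: Spry1, Dusp1, Dusp2, Dusp6 and, with 2 probe sets, Dusp10. Dusp4 and Dusp5 had no probe set of their own in that annotation and were not analysed here. The cells were T cells carrying the transgenic 5CC7 T cell receptor, given intravenously to B10.A recipients. Peptide in PBS followed by the same route, and the cells were sorted from pooled lymph nodes 48 h later. The 4 groups, of 3 arrays each, were cells that met 2 µg of MCC, 0.2 µg of MCC, 2 µg of 102S or 0.2 µg of 102S. MCC is described in the labels as a strong agonist of this receptor and 102S as a weak one, and the comparisons ask how transcripts follow the strength and the dose of the peptide. Cells without peptide were not analysed here, so each value stands against another stimulated group.

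As background, the engaged T cell receptor activates RAS through the adaptor LAT and the exchange factors RASGRP1 and SOS, and RAS then drives the kinases RAF, MEK and ERK in turn. ERK enters the nucleus and raises the transcription of early genes, among them its own inhibitors. Sprouty proteins act upstream, on the way from receptors to RAS and RAF. Dual-specificity phosphatases act downstream, by removing phosphate from both the threonine and the tyrosine of an active MAP kinase. Their products differ in place and target: DUSP6 is cytoplasmic and prefers ERK, DUSP1 and DUSP2 are nuclear, and DUSP10 acts mainly on JNK and p38.

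The promoters of the 3 genes whose transcripts changed in at least 1 comparison are printed because all 3 are early response genes read out at a single late time. They come from RefSeq (GRCm38.p6) and run from 250 bases before the annotated start to 50 bases after it, 5′ to 3′ on the gene's strand. Capitals mark the cAMP response element TGACGTCA, an element bound by CREB and ATF factors.
Spry1, chr3:37639697-37639996, strand +: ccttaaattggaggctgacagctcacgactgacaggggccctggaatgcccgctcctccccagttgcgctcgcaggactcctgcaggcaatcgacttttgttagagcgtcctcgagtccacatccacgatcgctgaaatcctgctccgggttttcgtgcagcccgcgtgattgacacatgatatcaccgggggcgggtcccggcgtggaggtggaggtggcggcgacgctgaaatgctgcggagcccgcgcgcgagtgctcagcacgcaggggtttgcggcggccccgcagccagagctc
Dusp1, chr17:26508423-26508722, strand -: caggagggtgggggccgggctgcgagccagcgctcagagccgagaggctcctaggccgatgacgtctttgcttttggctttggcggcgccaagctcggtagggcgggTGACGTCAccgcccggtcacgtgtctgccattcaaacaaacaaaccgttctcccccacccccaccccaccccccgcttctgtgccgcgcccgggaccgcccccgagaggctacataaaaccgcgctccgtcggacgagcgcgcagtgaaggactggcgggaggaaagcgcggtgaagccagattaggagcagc
Dusp6, chr10:99262981-99263280, strand +: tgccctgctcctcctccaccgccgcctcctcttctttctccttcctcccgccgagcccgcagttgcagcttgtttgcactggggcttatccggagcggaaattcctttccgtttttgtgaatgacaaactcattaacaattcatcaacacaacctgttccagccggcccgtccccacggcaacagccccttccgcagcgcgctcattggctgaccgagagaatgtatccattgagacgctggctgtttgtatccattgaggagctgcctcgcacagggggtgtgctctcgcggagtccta
Both strands were searched for that element, for the AP-1 heptamer TGAGTCA, for the ETS motif CCGGAAG and for the CArG box of serum response factor. No 2 of the matches found overlapped. The windows of 6 of the 7 genes were searched, and that of Dusp4 was not analysed here. The Dusp1 window held 1 match, TGACGTCA, beginning 143 bases upstream of the start, at position -143. The Spry1 and Dusp6 windows held none of these letters, and neither did those of Dusp2 and Dusp10. The window of Dusp5, a gene with no expression value here, held 2 CArG boxes, beginning at positions -82 and -72. Of 32851 RefSeq promoter windows of this length, 1.79% held the cAMP response element, 5.2% the AP-1 heptamer, 8.86% the ETS motif and 1.63% a CArG box. A match describes the letters and not a bound site.

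All values below are log2 expression as deposited, and a difference of 1 log2 is a 2-fold difference. T cell markers were detected in every group. Cd3d, Cd3e, Cd3g, Cd2, Cd28 and Thy1 had group means between 10.05 and 12.97 log2, and Cd4 between 7.12 and 7.74. Markers of other cells are given below, and the purity of the sort was not tested. The remaining T cell marker, Cd5, was higher with MCC at 0.2 µg (1.11 ± 0.14 log2) and with the higher dose of 102S (1.27 ± 0.14). On the replicate 1 array of every group the female transcript Xist was high (11.7 to 12.3 log2) and the Y-linked Eif2s3y low (3.31 to 4.26), while the other 8 arrays were the reverse. Replicate 1 thus came from female-type cells and replicates 2 and 3 from male-type cells. For β-actin, the control signal at the 3′ end less that at the 5′ end is called the β-actin difference here and is larger in degraded RNA. In log2 it ranged from 0.50 to 0.72 with 2 µg of MCC and from 0.74 to 2.33 with 0.2 µg of MCC. It ranged from 0.81 to 1.62 with 2 µg of 102S and from 0.76 to 2.35 with 0.2 µg of 102S. The summed linear level of 8 CD8 T and NK cell markers also differed, from 357 to 424 with 2 µg of MCC, 447 to 591 with 0.2 µg of MCC, 599 to 638 with 2 µg of 102S and 897 to 1060 with 0.2 µg of 102S. Of these 8, Klrk1 and Ncr1 lay below the intensity filter in every group. Klrd1 had the widest spread, with group means of 4.65, 6.27, 7.33 and 8.63 log2 in that order. Prf1 and Gzma rose in the same order over a narrower range, and Cd8a, Cd8b1 and Nkg7 passed in no comparison. The group means of Cd8b1, between 7.41 and 7.88 log2, were at a level like that of Cd4. The 7 B cell markers, carried mostly by Ighm, summed to 1700 to 1980, 1510 to 1650, 2100 to 2240 and 2680 to 3070 in the same order of groups. Cd79a, Ms4a1, Blk and Pax5 lay below the filter throughout. In that order, Ighm had group means of 10.73, 10.47, 11.00 and 11.45 log2. Cd79b had 5.23, 5.73, 4.86 and 4.47, and Cd22 had 5.75, 4.83, 4.75 and 4.90, so neither followed Ighm. With MCC at 0.2 µg Cd79b was higher (1.26 ± 0.33 log2) and Ighm lower (-0.98 ± 0.09). The 10 myeloid and dendritic cell markers summed to between 166 and 260 on every array, with 6 of them below the filter in all groups. The part of these measures in the results was not tested, apart from the values given with each result.

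**Figure D1:**
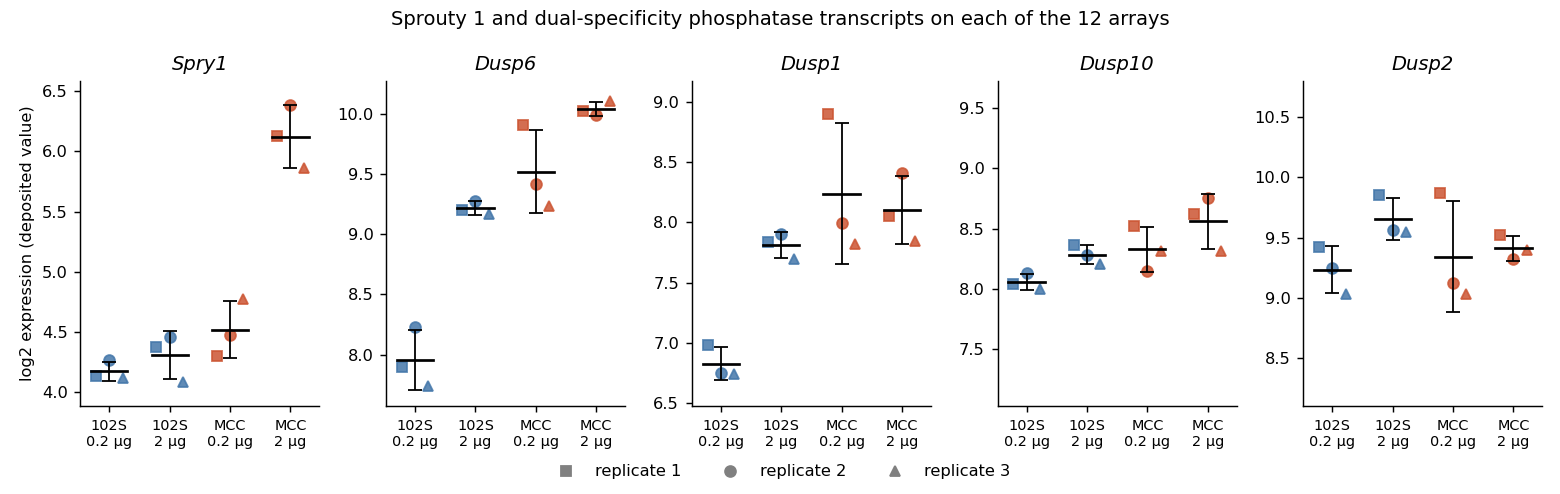
Deposited log2 expression (y axis) of Spry1, Dusp6, Dusp1, Dusp10 and Dusp2 in the 4 groups (x axis); each panel spans the same 2.7 log2, symbols are the 3 arrays of a group, horizontal bars their mean and error bars 1 SD. Spry1 stood between 5.86 and 6.39 with 2 µg of MCC and at most at 4.78 on the 9 other arrays, while Dusp6 and Dusp1 were lowest with 0.2 µg of 102S.

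Spry1, the receptor-proximal inhibitor, was raised in 1 group only, the cells that had met 2 µg of MCC. Its 3 arrays read 6.13, 6.39 and 5.86 there, against 4.30, 4.48 and 4.78 with 0.2 µg of MCC. With 2 µg of 102S they read 4.38, 4.46 and 4.08, and with 0.2 µg of 102S 4.13, 4.27 and 4.12. No array of the 2 µg MCC group overlapped with any other, whereas the ranges of 0.2 µg of MCC and 2 µg of 102S overlapped, as did those of the 102S doses. In the order just given, the group means were 6.12 ± 0.26, 4.52 ± 0.24, 4.31 ± 0.20 and 4.17 ± 0.08 (SD, n = 3 each). The 9 arrays outside the high group averaged 4.33, under the intensity filter of 4.48, so this probe set passed the filter only through the group in which it was high. The low readings may lie near the array's floor. If so, the differences from the high group are lower limits, apart from their sampling error. They are given without a fold.

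At 2 µg, Spry1 read higher with MCC than with 102S by 1.82 log2, a lower limit if the 102S readings lie at the floor. The fitted standard error was 0.18 and the 95% interval 1.416 to 2.216 (limma, Benjamini-Hochberg adjusted p = 0.000145). Here and below, ± values with differences are standard errors. Without the filter, when every probe set entered the fit, the adjusted p was 0.000117 here, 0.00121 for the dose of MCC and 0.0291 for the interaction given below. The female-type arrays differed by 1.75 and the male-type arrays by 1.85. At 0.2 µg the difference of 0.35 ± 0.18 did not pass (95% interval -0.06 to 0.74, adjusted p = 0.249), although the 3 arrays of each group did not overlap. Raising the dose of MCC gave 1.61 log2 (standard error 0.18, 95% interval 1.205 to 2.005, adjusted p = 0.00125), again a lower limit if the low readings lie at the floor. The female-type arrays gave 1.82 and the male-type arrays 1.497. Raising the dose of 102S gave 0.13 (-0.27 to 0.53). The calls at 2 µg and for the dose of MCC share the 3 high arrays and are not independent.

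The peptide difference of Spry1 was larger at 2 µg than at 0.2 µg by 1.47 ± 0.26 log2 (interaction, adjusted p = 0.02). Leaving out 1 array ended this call for 6 of the 12 arrays (2 µg of MCC replicate 1 or 2, 0.2 µg of MCC replicate 2, 2 µg of 102S replicate 3, 0.2 µg of 102S replicate 1 or 2), with a highest adjusted p of 0.0711. Its size then lay between 1.34 and 1.49. In the male-type arrays alone it was 1.42 with adjusted p = 0.151, and the single female-type arrays gave 1.58. As the low readings sit near the filter, the size of this interaction is inexact. If the low groups lie at the floor, differences among them are hidden, and the sign of the interaction is not settled either.

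Dusp6, the cytoplasmic ERK phosphatase, was higher with MCC than with 102S at both doses and rose with the dose of 102S. With 0.2 µg of 102S its arrays read 7.90, 8.23 and 7.74, and with 2 µg of 102S 9.21, 9.28 and 9.17. They read 9.91, 9.42 and 9.24 with 0.2 µg of MCC and 10.02, 9.99 and 10.10 with 2 µg of MCC. The lowest and the highest group stood apart from all others, and the middle groups, 2 µg of 102S and 0.2 µg of MCC, overlapped. The means were 7.96 ± 0.25, 9.22 ± 0.06, 9.52 ± 0.35 and 10.04 ± 0.06 in that order (SD, n = 3 each).

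Dusp6 was 1.77-fold higher with MCC than with 102S at 2 µg (0.82 ± 0.17 log2, adjusted p = 0.00809) and 2.96-fold higher at 0.2 µg (1.56 ± 0.17, adjusted p = 4.74e-05). These comparisons share no arrays. Within the female-type arrays the differences were 0.82 and 2.01, and within the male-type arrays 0.83 and 1.34. From 0.2 to 2 µg of 102S the transcript rose 2.39-fold (1.26 ± 0.17 log2, adjusted p = 0.000904), by 1.31 in the female-type and 1.23 in the male-type arrays. All 3 calls held whichever array was left out.

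From 0.2 to 2 µg of MCC, Dusp6 differed by 0.52 ± 0.17 log2, which did not pass (95% interval 0.16 to 0.88, adjusted p = 0.145). It passed without 0.2 µg of MCC replicate 1 (0.71, adjusted p = 0.0194) and in the male-type arrays alone (0.72, adjusted p = 0.0436). With the β-actin difference as a covariate it was 0.25 (adjusted p = 0.305), and without 0.2 µg of MCC replicate 3 it was 0.38 (adjusted p = 0.518). Replicate 1 of 0.2 µg of MCC was the female-type array of its group. It had the lowest β-actin difference there, 0.74 against 1.78 and 2.33. It also read highest in its group for Dusp6, Dusp1, Dusp2 and Dusp10. Between 0.2 µg of MCC and 2 µg of 102S, neighbours in the order of levels, Dusp6 differed by 0.31 (-0.06 to 0.67, adjusted p = 0.407). With the β-actin difference as a covariate that difference was 0.41 and passed (adjusted p = 0.03). The peptide difference was smaller at 2 µg than at 0.2 µg by 0.74 log2, and this interaction of -0.74 ± 0.23 did not pass (adjusted p = 0.298). With the β-actin covariate it was -0.98 and passed (adjusted p = 0.00288).

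Dusp1, a nuclear phosphatase of JNK, p38 and ERK, was low in 1 group, the cells that had met 0.2 µg of 102S. Its arrays read 6.99, 6.75 and 6.74 there, against 7.84, 7.91 and 7.70 with 2 µg of 102S. They read 8.90, 7.99 and 7.82 with 0.2 µg of MCC and 8.06, 8.41 and 7.85 with 2 µg of MCC. The group of 0.2 µg of 102S did not overlap with any other, and the 3 other groups overlapped with each other. The means were, from the lowest up, 6.83 ± 0.14 (0.2 µg, 102S), 7.81 ± 0.11 (2 µg, 102S), 8.10 ± 0.28 (2 µg, MCC) and 8.24 ± 0.58 (0.2 µg, MCC), each over n = 3 with its SD.

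Dusp1 was 2.67-fold higher with MCC than with 102S at 0.2 µg (1.41 ± 0.24 log2, adjusted p = 0.00202). The female-type arrays differed by 1.92 and the male-type arrays by 1.16, and the call held whichever array was left out. At 2 µg the difference was 0.29 ± 0.24 (95% interval -0.24 to 0.82, adjusted p = 0.531). From 0.2 to 2 µg of 102S it rose by 0.99 ± 0.24 log2, just past the threshold (adjusted p = 0.0482), by 0.86 in the female-type and 1.06 in the male-type arrays. Leaving out any of the 6 arrays compared ended this call (adjusted p between 0.0901 and 0.208), while the difference stayed between 0.94 and 1.07. Without the filter on dim probe sets the adjusted p was 0.0581, and without an intensity trend 0.0591. The dose of MCC gave -0.14 (-0.66 to 0.39, adjusted p = 0.787). Its sign turned without 0.2 µg of MCC replicate 1, to 0.20, and in the male-type arrays alone, to 0.22. The interaction of -1.13 ± 0.34 did not pass (adjusted p = 0.26), but passed with the β-actin covariate (-1.44, adjusted p = 0.00765).

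Dusp1 is also an early gene of cell handling, so 16 genes of that response were read beside it, of which 11 passed the filter. With MCC against 102S at 0.2 µg, where Dusp1 was higher, 2 were higher and 2 lower, where 14.3% of all probe sets were called. The orphan receptor Nr4a1 (0.95 ± 0.20 log2) and the AP-1 subunit Jund (0.40 ± 0.08) were higher with MCC, and the mRNA-decay factor Zfp36 (-1.30 ± 0.23) and the cytokine signal inhibitor Socs3 (-2.82 ± 0.55) were lower. Fos differed by 0.44 (-0.37 to 1.26), Junb by -0.20 (-0.98 to 0.59) and Egr1 by 0.13 (-0.15 to 0.41). Limma called 0 of the 11 for the dose of 102S, where 3 had an unadjusted p under 0.05. The part of cell handling in the level of Dusp1 was not tested.

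Dusp10, the JNK and p38 phosphatase, ordered the groups as Dusp6 did, but over a narrow range, and passed in no comparison. Its brighter probe set read 8.04, 8.13 and 7.997 with 0.2 µg of 102S and 8.37, 8.28 and 8.21 with 2 µg of 102S. It read 8.52, 8.15 and 8.32 with 0.2 µg of MCC and 8.62, 8.76 and 8.31 with 2 µg of MCC. The weakest stimulus did not overlap with the 3 others, which overlapped with each other. MCC minus 102S was 0.28 log2 at 2 µg (95% interval -0.02 to 0.58, adjusted p = 0.251) and 0.27 at 0.2 µg (-0.03 to 0.57, adjusted p = 0.222). The dose difference was 0.23 for MCC (-0.07 to 0.53) and 0.23 for 102S (-0.07 to 0.53). The interaction was 0.01 (-0.42 to 0.43). The other Dusp10 probe set averaged 4.11 over the 12 arrays, between 3.92 and 4.33 on each, below the filter, and was not tested.

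Dusp2, the phosphatase of activated lymphocytes, passed in no comparison either, and its means did not follow the order of agonist strength. It read 9.42, 9.24 and 9.03 with 0.2 µg of 102S and 9.85, 9.56 and 9.54 with 2 µg of 102S. With 0.2 µg of MCC it read 9.87, 9.12 and 9.03, and with 2 µg of MCC 9.52, 9.32 and 9.39. The highest mean was that of 2 µg of 102S, at 9.65 ± 0.17 (SD, n = 3), and the values with 2 µg of 102S lay above those with 2 µg of MCC and above those with 0.2 µg of 102S. MCC minus 102S was -0.24 at 2 µg (-0.66 to 0.18, adjusted p = 0.512) and 0.11 at 0.2 µg (-0.31 to 0.53, adjusted p = 0.77). The 102S dose difference was 0.42 (0.00 to 0.84, adjusted p = 0.39), and that of MCC was 0.07 (-0.35 to 0.49). With the β-actin covariate the difference at 2 µg became -0.47 (adjusted p = 0.00614) and the dose difference of 102S 0.39 (adjusted p = 0.0236), and both passed. The interaction of -0.35 did not pass (adjusted p = 0.693), but passed with the β-actin covariate (-0.68, adjusted p = 0.0335). Without 0.2 µg of MCC replicate 1, Dusp2 was lower with 0.2 µg of MCC than with 2 µg of 102S (-0.57, adjusted p = 0.0406). With all arrays that difference was -0.31 (adjusted p = 0.471).

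**Figure D2:**
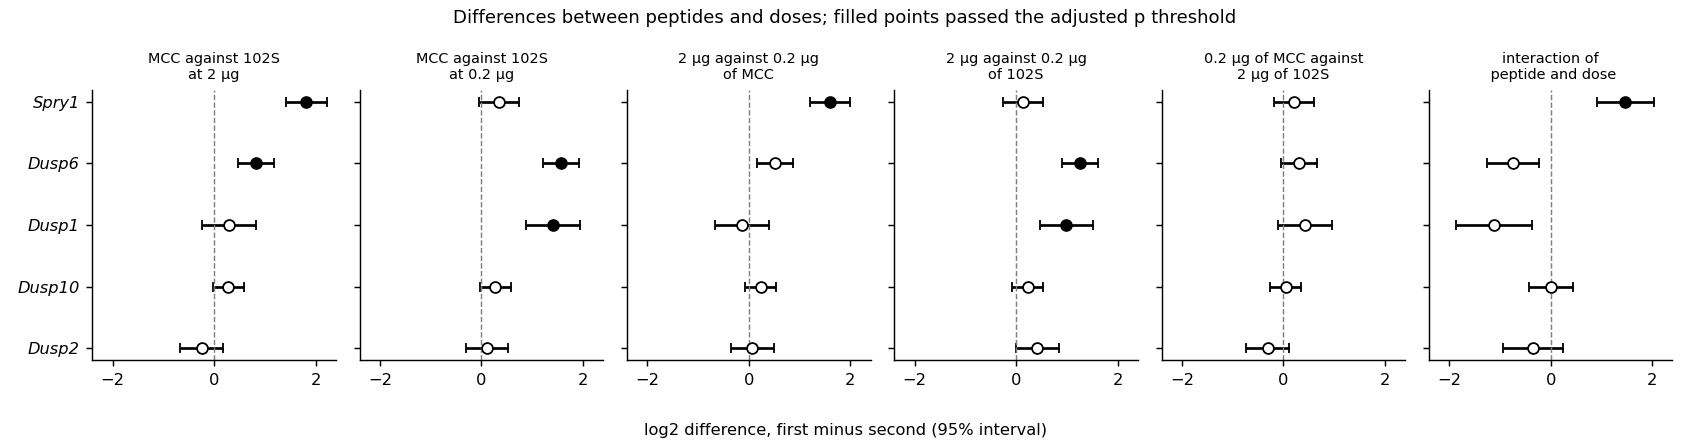
Log2 differences between groups (x axis, first group minus second, points with 95% intervals) for the 5 measured genes (y axis) in each comparison; the interaction is the peptide difference at 2 µg minus that at 0.2 µg, and filled points passed the adjusted p threshold of 0.05. Spry1 passed at 2 µg, for the dose of MCC and for the interaction, Dusp6 at both doses and for the dose of 102S, and Dusp1 at 0.2 µg and for the dose of 102S.

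The calls of the 5 genes are set side by side here, and the genes were not tested against each other. At 2 µg, 2 of the 5 genes were called higher with MCC (Spry1 and Dusp6), where 10.3% of all probe sets tested were called, 4.04% higher and 6.23% lower. At 0.2 µg 2 of 5 were called higher (Dusp6 and Dusp1), where 14.3% were called, 7.85% higher and 6.45% lower. For the dose of MCC 1 of 5 was called higher (Spry1), where 1.76% were called, 0.708% higher and 1.05% lower. For the dose of 102S 2 of 5 were called higher (Dusp6 and Dusp1), where 3.16% were called, 2.66% higher and 0.509% lower. The interaction called 1 of 5 (Spry1), where 0.767% were called, 0.0738% higher and 0.693% lower. Between 0.2 µg of MCC and 2 µg of 102S limma called 0 of 5, none of which had an unadjusted p under 0.05, where 2.48% were called, 1.56% higher and 0.915% lower. The smallest unadjusted p there was 0.0903, for Dusp6.

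Groups that did not overlap were also counted. At 2 µg the arrays of MCC and 102S stood apart for 3 of 5 genes, 2 of them higher with MCC, where 32.2% of all probe sets stood apart, 12.3% higher and 19.9% lower. At 0.2 µg they stood apart for 4 of 5, all higher with MCC, where 28.5% did, 13.9% higher and 14.7% lower. For the dose of MCC 2 of 5 stood apart, where 18.5% did, 7.69% higher and 10.8% lower. For the dose of 102S 4 of 5 stood apart, where 20.9% did, 12.8% higher and 8.08% lower. Between 0.2 µg of MCC and 2 µg of 102S 0 of 5 stood apart, where 22.9% did, 9.59% higher and 13.3% lower. With 5 genes, 1 of which passed the filter only through its high group, these counts describe the genes and support nothing further. The summed CD8 T and NK cell markers differed between the same groups, as given above. The β-actin difference stood apart from the other groups only with 2 µg of MCC, and its ranges in the other groups overlapped. The β-actin difference entered an alternative fit as a covariate, and the calls that changed there are given with each gene and below. Whether either measure caused these calls was not tested. In sorted cells measured in bulk, fewer cells expressing a gene and less RNA per cell cannot be told apart.

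Among relatives outside these genes, Dusp7 was lower with MCC at both doses, Dusp12 lower at 2 µg and Dusp19 higher at 0.2 µg, and the others were not called. Of 16 other dual-specificity phosphatases 13 had a probe set and 7 passed the filter. At 2 µg 0 were higher and 2 lower with MCC, where 10.3% of all probe sets were called and 6.23% lower. The median difference was -0.27 log2, where that of all probe sets was -0.04. Dusp7, another cytoplasmic ERK phosphatase, stood at 6.27 with MCC and 7.29 with 102S (-1.02 ± 0.17, adjusted p = 0.00352), and Dusp12 was lower by 0.62 ± 0.15 log2 (-0.62, adjusted p = 0.0186). At 0.2 µg Dusp7 was lower again (-0.77 ± 0.17) and Dusp19 higher (0.76 ± 0.15). That is 1 higher and 1 lower of 7, where 14.3% of all probe sets were called. The 7 genes had a median of 0.06 there, where that of all probe sets was -0.04. Dusp7 and Dusp6 thus differed between the peptides in opposite directions at both doses. Limma called 0 of the 7 for the dose of MCC, for that of 102S and for the interaction, where 2, 2 and 1 had an unadjusted p under 0.05.

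Of the 6 relatives of Spry1, Spry2 and Spry4 lay below the filter, with group means between 3.51 and 4.34 log2, and Spry3 and Spred3 had no probe set of their own. Spred1 and Spred2, which also restrain RAS to ERK signalling, were tested and passed in no comparison. Spred1 differed by -0.39 (-0.74 to -0.04, adjusted p = 0.167) at 2 µg.

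In the RAS and ERK cascade, Ptpn11 was higher and Rps6ka3 lower with MCC at both doses. Of 25 RAS and ERK cascade genes 17 passed the filter. At 2 µg 1 was higher and 3 lower with MCC, where 10.3% of all probe sets were called, and the median difference was -0.07 log2, against -0.04 over all probe sets. Ptpn11, the SHP2 phosphatase that promotes RAS activation, was higher with MCC by 1.42 ± 0.15 log2 (adjusted p = 0.000186). The ERK-activated kinase gene Rps6ka3 (-0.88 ± 0.15), the RAS GTPase-activating gene Rasa2 (-0.52 ± 0.13) and the RAF scaffold gene Shoc2 (-0.58 ± 0.16) were lower. At 0.2 µg Ptpn11 (0.90 ± 0.15) and Rasa1 (0.38 ± 0.12) were higher and Rps6ka3 lower (-0.99 ± 0.15), where 14.3% of all probe sets were called, and the list median was -0.20 log2. Ptpn11 also rose with the dose of MCC (0.92 ± 0.15, adjusted p = 0.00899), as Spry1 did, and was the only gene of the 17 called there. Limma called 0 of the 17 for the dose of 102S, where 2 had an unadjusted p under 0.05. The MEK genes Map2k1 (0.07, -0.34 to 0.49 at 2 µg) and Map2k2 (-0.11, -0.35 to 0.13 at 2 µg) did not pass in either peptide comparison. Rps6ka3 was also lower with 0.2 µg of MCC than with 2 µg of 102S (-0.81 ± 0.15), the only call of the 17 there.

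Among early genes and transcription factors downstream of ERK, Elk3 and Egr2 were higher with MCC at both doses. Of 23 such genes 18 passed the filter. At 2 µg 2 were higher and 2 lower with MCC, where 10.3% of all probe sets were called, with a median of 0.12 log2. At 0.2 µg 3 were higher and 1 lower, where 14.3% were called, with a median of -0.06. The ETS factor Elk3, a target of ERK itself, was higher with MCC by 0.77 ± 0.12 log2 at 2 µg and by 1.15 ± 0.12 at 0.2 µg, and rose by 0.73 ± 0.12 with the dose of 102S. Phlda1 was higher by 1.45 ± 0.16 at 0.2 µg and by 1.12 ± 0.16 for the dose of 102S, the comparisons in which Dusp6 and Dusp1 were called. Both of these comparisons use the arrays of 0.2 µg of 102S. The zinc finger factor Egr2 was higher at both doses (0.57 ± 0.12 and 0.75 ± 0.12). Ier5 (-0.59 ± 0.14) and Ets2 (-0.86 ± 0.23) were lower at 2 µg, and Ets1 (-0.87 ± 0.22) at 0.2 µg. Egr1, the classical ERK-induced early gene, had group means between 10.28 and 10.45 log2 and passed in no comparison.

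DUSP1 and DUSP10 act on the kinases JNK and p38. Of the 17 genes listed for the JNK and p38 cascade, 14 passed the filter. At 2 µg 0 were higher and 3 lower with MCC, where 10.3% of all probe sets were called and 6.23% lower, with a median of -0.08 log2. They were Gadd45b (-1.02 ± 0.22), an activator of that branch, the kinase gene Map3k1 (-0.42 ± 0.11) and the p38α gene Mapk14 (-0.33 ± 0.09). At 0.2 µg Map3k1 (-0.50 ± 0.11) and Mapk14 (-0.34 ± 0.09) were lower, where 14.3% of all probe sets were called. Mapk11, which encodes p38β, rose by 1.01 ± 0.19 log2 with the dose of 102S (adjusted p = 0.00878), the only gene of the 14 called there. Neither the MCC dose nor the interaction gave a limma call among the 14 (0 of 14; at an unadjusted p under 0.05, 3 and 1).

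**Figure D3:**
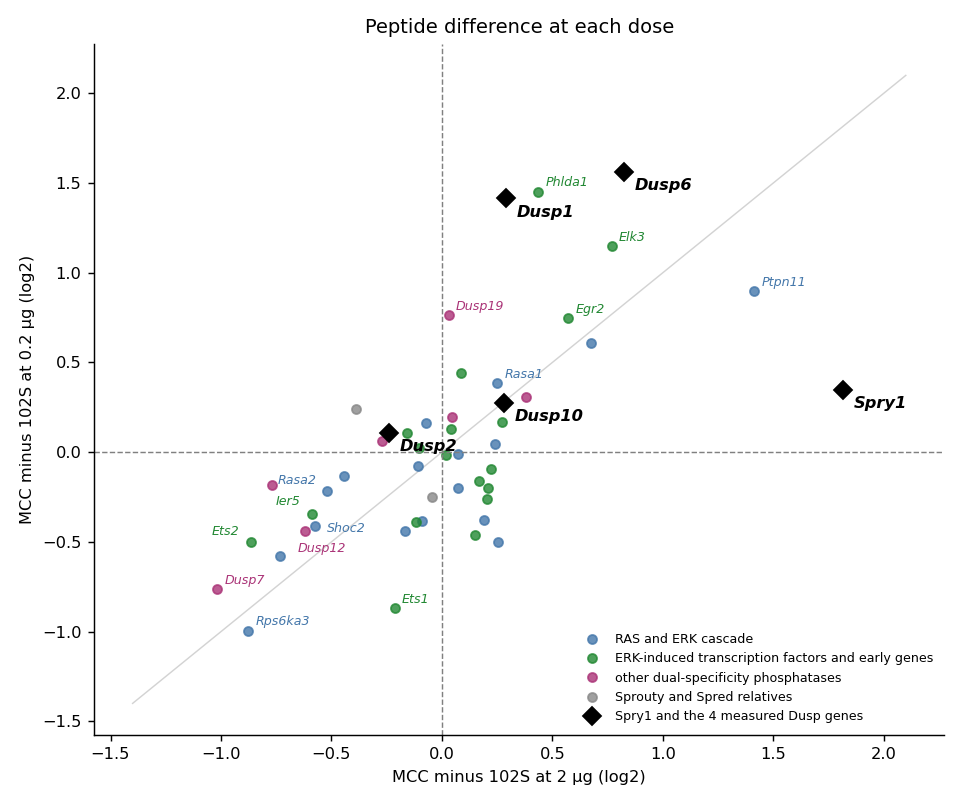
MCC minus 102S difference at 2 µg (x axis, log2) against that at 0.2 µg (y axis, log2) for the 5 measured genes (diamonds) and the tested genes of 4 pathway lists (circles), with list genes named where called at either dose; dashed lines mark 0 and the grey line equal differences. Spry1 lies far to the right (1.82 and 0.35), Dusp1 near the top (0.29 and 1.41), and Dusp6 is positive on both axes (0.82 and 1.56).

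Over the 12 arrays, the genes whose profile was most like that of each gene were ranked by Pearson correlation among 7944 others. The arrays share the 4 groups, so these values mix group patterns with variation among arrays of a group and carry no p-value. Dusp6 was most like the inhibitory receptor gene Ctla4 (r = 0.986), Zfp52 (0.983) and the histone deacetylase gene Hdac1 (0.982). Spry1 was most like Tmem38b (r = 0.952), the kinase gene Nek7 (0.948) and the adhesion receptor gene Alcam (0.946). Dusp1 was most like the TNF family ligand gene Tnfsf4 (r = 0.947), Sytl2 (0.941) and the cathepsin gene Ctss (0.94). Dusp2 was most like the cannabinoid receptor gene Cnr2 (r = 0.919), Stat5b (0.911) and Capn7 (0.899), and Dusp10 was most like Katna1 (r = 0.936), Fzr1 (0.936) and Idh3b (0.929). Deviations from the group means correlated at 0.925, 0.904 and 0.895 for Dusp2 with its genes, and at 0.21, 0.221 and 0.485 for Spry1. Those of Dusp1, Dusp6 and Dusp10 lay between 0.622 and 0.858. The deviations of Dusp2, Dusp6, Dusp1 and Dusp10 correlated with those of the β-actin difference at -0.871, -0.783, -0.656 and -0.471 in that order. For Spry1 that value was 0.167. The part of RNA quality in these likenesses was not tested. Among the 5 genes themselves, Dusp1 and Dusp6 were the most alike (r = 0.888) and Spry1 and Dusp2 the least (r = -0.05).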

How the data were processed

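The members and gene lists were chosen with earlier results of these data known. Total RNA (100 ng) was amplified with a 3′ in vitro transcription kit for 16 h and biotin-labelled, per the labels' protocols. The authors deposited log2 values for 22690 probe sets on 12 arrays. The submitters' processing notes name GCOS 1.4. Their summarisation and scaling were not given in the sources consulted. That values are log2 was read from the values (1.86 to 14.74), and array medians (5.17 to 5.26) called for no rescaling.

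Symbols came from the platform annotation, and 20364 of the 20393 probe sets with 1 symbol matched RefSeq (GRCm38.p6) by Entrez identifier, which changed 0 symbols. Another 691 probe sets had several symbols and 1606 had none. The 64 controls and probe sets averaging less than the 40th percentile, 4.48 log2, were dropped, leaving 13556. A gene's probe set with the highest mean stood for it. The model was limma's lmFit with eBayes (limma 3.58.1, R 4.3.3, intensity trend, 4 group means, 8 residual degrees of freedom), 2-sided, with Benjamini-Hochberg adjustment over the 13556 and a threshold of 0.05. The number of arrays limits the precision, with a median standard error of 0.18 log2. The labels do not say that replicates were separate animals, so p-values measure the spread between these samples. Tested on simulated data for the peptide comparison at 2 µg, the fit found 68% of 100 probe sets changed by 1 log2 and 94% of 100 changed by 2 log2 (7 false calls). For the interaction it found 34% and 85% (5 false calls).

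Named were the members and, per list and comparison, up to 3 called genes by smallest p. Shoc2, Ets1, Ets2, Jund and genes that did not pass were named after their values were seen.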

Additional observations from a re-analysis of the deposited data

Results flagged for a closer look

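Spry1 is listed because the interaction of peptide and dose passed the threshold. The MCC minus 102S difference was 1.82 log2 at 2 µg and 0.35 at 0.2 µg, and the interaction was 1.47 log2 (limma, adjusted p = 0.02). All 3 arrays with 2 µg of MCC lay above the 9 others, which averaged 4.33 log2, under the filter of 4.48. The probe set passed the filter only through its high group, its low readings may lie near the floor, and the sizes are inexact. If the low groups lie at the floor, the sign of the interaction is not settled either. The interaction was not called when any of 6 arrays was left out or in the male-type arrays alone. Groups of 3 arrays are too small to test single arrays as outliers.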

How the results depend on the processing

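Of the differences of the 5 genes under all alternatives, 474 kept their side of the threshold, 15 lost a call, 10 gained one and 0 reversed a called direction. Counts of called genes changed as follows, with the cause not tested unless named. The stricter filter (60th percentile) removed Spry1 and left 1 called gene at 2 µg, 0 for the dose of MCC and 0 for the interaction, by its construction. Without a filter, or without an intensity trend, 1 gene was called for the dose of 102S. In the male-type arrays alone 2 were called for the dose of MCC and 0 for the interaction. The β-actin covariate gave 4 calls for the interaction, 3 at 2 µg, 3 for the dose of 102S and 1 for 0.2 µg of MCC against 2 µg of 102S. Leaving out 1 array gave 1 to 2 calls for the dose of MCC, 1 for that of 102S, 0 to 1 for the interaction, and 0 to 1 for 0.2 µg of MCC against 2 µg of 102S. With the replicate number as a block, 2 genes were called for the dose of MCC, since Dusp6 passed (adjusted p = 0.0431), and no other call of these genes changed. The numbers were not treated as pairs: 16 of 18 same-numbered pairs across groups had deviations correlated over 0.1 (lowest -0.29), and 10 of 12 arrays correlated best with their own number, which is a hint from the data and not from the design.

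Over all probe sets, counts called ranged across alternatives from 772 to 3330 at 2 µg (1392 as deposited), 1071 to 3645 at 0.2 µg (1939), 74 to 1563 for the dose of MCC (239), 269 to 1420 for the dose of 102S (429), 81 to 321 for the interaction (104) and 130 to 1176 for 0.2 µg of MCC against 2 µg of 102S (336). Leaving out 1 array gave 700 to 1076, 1051 to 2785, 61 to 1208, 210 to 387, 62 to 142 and 85 to 654. Dim signal limits Spry1 and the second Dusp10 probe set, which read between 3.92 and 4.33 log2.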
